A study of Mus musculus with 4 samples.

Results

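Cardiac lymphatic endothelial cells were described in single-cell transcriptomes of sorted mouse heart endothelium. Cells were chosen by their own measured transcripts, so the genes named here are no finding. A cell was taken as lymphatic when it held at least 3 unique molecular identifiers (UMIs, counted transcripts) of Lyve1, Mmrn1, Reln, Pdpn and Flt4 together and at least 2 of these 5 genes were seen. It also had to hold at least 1 UMI of the endothelial genes Pecam1, Cdh5 or Egfl7, and none of the endocardial genes Npr3 and Tmem108 or of the macrophage genes C1qb, Tyrobp and Fcer1g. The rule kept 160 of 21920 barcodes, and 144 of them came from the P2 library. E12 gave 2 cells, E15 gave 6 and the adult gave 8, so these 3 libraries were pooled where a level was needed outside P2.

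All hearts were from C57Bl6J mice that carried no transgene and received no treatment. Endothelial cells positive for CD31 and negative for CD45 were sorted, frozen and made into 1 droplet library per stage, each from pooled animals: 37 at embryonic day 12 (E12), 48 at embryonic day 15 (E15), 21 at postnatal day 2 (P2) and 6 at 8 weeks (adult). A CD31 gate keeps blood and lymphatic endothelium alike. The P2 library held 5884 barcodes with a median of 4531.5 UMIs. The E12 library held 5732 (median 1241), E15 6062 (median 1013) and the adult 4242 (median 1510). Because each stage was 1 library, no test between stages was possible. Intervals given for shares, levels and ratios are 95% exact intervals that cover counting error alone. The study left lymphatic cells out of its own account of the coronary plexus.

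Lymphatic capillaries take up tissue fluid and immune cells and return them to the veins. Their endothelium is specified by the homeobox transcription factor Prox1 and grows in response to VEGF-C, the ligand of the receptor Flt4 (VEGFR3). Initial lymphatic capillaries carry Lyve1 and secrete the chemokine Ccl21a, which draws dendritic cells into the vessel, whereas collecting vessels carry valves. In the mouse heart the lymphatic network appears before birth and expands over the surface of the ventricles in the first postnatal weeks.

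By the rule, lymphatic cells made up 2.45% of the P2 barcodes [2.07 to 2.88]. They made up 0.189% of the adult barcodes [0.0815 to 0.371], 0.0990% of those of E15 [0.0363 to 0.215] and 0.0349% of those of E12 [0.0042 to 0.126]. The P2 share was the largest, and the P2 library was also the deepest. When every cell was thinned to 500 UMIs the rule found 0 cells at E12 and E15, 10 at P2 (0.170%) and 1 in the adult (0.0236%), so the rule itself depends on depth. A readout outside the rule, the share of thinned cells with at least 3 Ccl21a UMIs, was 2.21% at P2 [1.85 to 2.62]. It was 0.860% at E15 [0.637 to 1.14], 0.306% in the adult [0.163 to 0.524] and 0.212% at E12 [0.110 to 0.371]. On this measure the P2 share was again the highest and the E15 share the next, with intervals that did not overlap those of the others. This share also depends on the level of Ccl21a per cell. In barcodes with at least 10 Ccl21a UMIs this level was 22186 CPM at P2, 14190 at E15, 6585 at E12 and 25597 in the adult. Ccl21a itself chose these barcodes, and their median depth was 5580 UMIs at P2 and 1309 at E15, so the levels are a description. The share also counts cells outside the rule. At least 10 Ccl21a UMIs were held by 13 cells at E15 and 2 at E12 that met the rule for coronary comparison cells, with no UMI of the 5 lymphatic genes. Dissociation also differed by stage, with a second enzyme step at P2 and in the adult, and lysis of red blood cells in the adult. After thawing, dead cells were removed with a kit at E12 and E15, while P2 and adult cells were sorted again for live cells. The part of these steps in the shares was not tested.

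The 144 P2 cells had a median of 5489.5 UMIs and summed to 913038 UMIs, against 2544 at E12, 14266 at E15 and 10066 in the adult. Of the 5 genes of the rule, 2 were seen in 24 of the P2 cells, 3 in 44, 4 in 57 and all 5 in 19. These genes chose the cells, so their levels are a description. Lyve1, a hyaluronan receptor, was seen in 120 of 144 cells with a median of 5 and a maximum of 34 UMIs. Reln, a secreted glycoprotein, was seen in 114, the membrane mucin Pdpn in 105, Flt4 in 101, and Mmrn1, a multimerin stored by endothelium, in 63. Summed over the P2 cells, in UMIs of a gene per 1000000 UMIs (CPM), Lyve1 stood at 1129, Pdpn at 359, Mmrn1 at 324, Reln at 274 and Flt4 at 212. Lyve1 was thus the gene most often seen and Mmrn1 the gene least often seen. At the threshold, 4 P2 cells held exactly 3 UMIs of the 5 genes, with 12 Prox1 and 125 Ccl21a UMIs between them, and 14 cells just outside held 2 UMIs, with 12 Prox1 and 540 Ccl21a UMIs. At P2 the rule dropped 36 further cells for an endocardial UMI and 2 for a macrophage UMI. No lymphatic barcode was lymphatic in more than 1 library, and 6 of the 160 barcodes recurred as a cell barcode of another library.

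The lymphatic label was checked on genes that the rule did not use. Prox1 was seen in 112 of the 144 cells and Ccl21a in 133. At least 1 of these 2 genes was seen in 141 cells, both in 104 and neither in 3. Prox1 stood at 290 CPM in the lymphatic cells, with 0 to 11 UMIs per cell and a median of 1. In the coronary comparison cells, which held at least 2 UMIs of the blood endothelial genes Fabp4, Cldn5 and Aplnr and none of the 5 lymphatic genes, it stood at 13.6 CPM. There it was seen in 183 of 4236 cells (median depth 4388 UMIs against 5489.5 in lymphatic cells). Of these 4236 cells 321 also held at least 1 Ccl21a UMI, with a highest count of 3, so a single Ccl21a UMI marks no lymphatic cell. At least 10 Ccl21a UMIs were held by 120 of the 144 lymphatic and by 0 of the coronary cells. The Prox1 ratio was 21.4 [18 to 25.4]. In the 16 lymphatic cells of the other libraries, 5 Prox1 UMIs were counted where the coronary levels of the same libraries predict 0.198. E12, with 2544 UMIs in all, had 0 Prox1 UMIs, E15 had 2 and the adult 3.

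Markers of other cell types were low. Of 14 macrophage markers, 12 were at 0 in the P2 lymphatic cells, among them Csf1r, Cd68, Ptprc and C1qa. The sort removed CD45+ cells, CD45 being the product of Ptprc, and the rule barred cells with C1qb, Tyrobp or Fcer1g, so these zeros follow in part from the selection. The summed level was 31.8 CPM against 17.8 in coronary cells, and 25.2 CPM of it was the mannose receptor Mrc1, which lymphatic endothelium also expresses. The pooled cells of the other libraries had 0 UMIs of this list. Fibroblast markers summed to 134 CPM, with Postn most abundant at 78.9 and Tcf21 at 0 of 8 markers, against 599 in coronary and 1689 in endocardial cells. Epicardial markers summed to 18.6 CPM against 118.5, nearly all of it Wt1, with 6 of 8 at 0. Mural markers summed to 20.8 CPM against 45.9, led by Kcnj8, with Tagln, Cspg4 and Myh11 at 0. Cardiomyocyte markers summed to 98.6 CPM against 133, led by Tnnt2, with 3 of 10 at 0. Erythroid markers gave 7.67 CPM against 36.5, with Hbb-bs and Hba-a2 level at 3 UMIs each and 6 of 9 at 0, and platelet markers 16.4 against 21.7, with Pf4 and Itga2b level at 6 UMIs each and 3 of 7 at 0. At E12, E15 and in the adult these lists held at most 2 UMIs each in the lymphatic cells. A doublet score over 0.15 was given to 18 of the 144 cells, a larger share than the 254 of 5884 (4.32%) among all P2 barcodes, and 9 exceeded the limit on UMIs that the study set for P2.

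The comparison with coronary cells asks what distinguishes cardiac lymphatic from blood endothelium. UMIs were summed per library and class, and edgeR's quasi-likelihood test with the library as a block was fitted to 7900 genes, with the genes of the selection rules left out of the calls. At an adjusted p of at most 0.05, 313 genes (3.96% of those tested) were higher in lymphatic cells and 446 (5.65%) were lower. Counts of called genes in the lists below are to be read beside these shares, and single calls in a short list say little. On simulated counts 54 of 7655 unchanged genes were called, a larger part of the simulated calls than the threshold allows. At P2 alone, 441 genes (5.58%) were at least 2-fold higher and 595 (7.53%) at least 2-fold lower. The calls rest on P2, which holds most of the lymphatic UMIs. Without it 396 genes could be tested and 1, Nts, was called, with 11 higher and 24 lower at an unadjusted p under 0.05. DESeq2 called 105 higher and 30 lower, and scaling by library size alone 482 and 460. With library size alone the median fitted log2 fold change moved from -0.29 to 0.00, so fitted values are read against -0.29. The calls themselves test against 0, so the balance of higher and lower calls depends on the scaling. For this reason levels and ratios at P2 are given first below, beside the UMIs seen and expected in the 16 other cells.

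**Figure D1:**
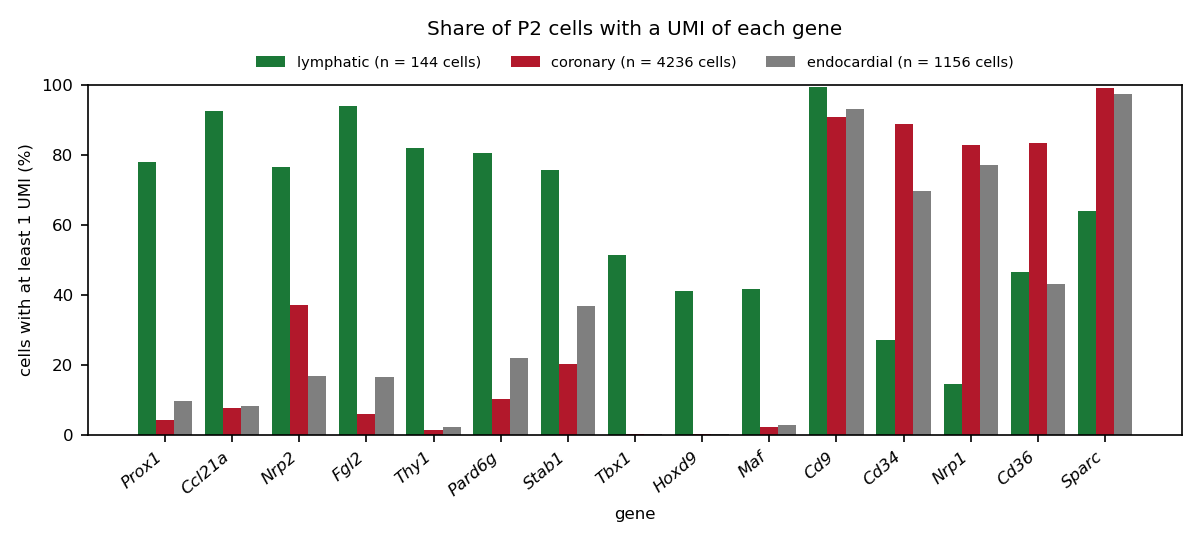
Share of P2 cells, in percent, with at least 1 UMI of 15 genes, as bars for 144 lymphatic, 4236 coronary and 1156 endocardial comparison cells. Prox1, Ccl21a, Nrp2, Fgl2, Thy1, Pard6g, Stab1, Tbx1, Hoxd9 and Maf were seen in more lymphatic cells, Cd9 in nearly all cells of each class, and Cd34, Nrp1, Cd36 and Sparc in fewer lymphatic than coronary cells.

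Among 13 transcription factors of the lymphatic lineage, 5 were called higher and 1 lower, and the median P2 log2 ratio was 0.74 against 0.01 over all genes tested. Besides Prox1, Tbx1, a T-box factor needed for cardiac lymphatic development, stood at 127 CPM in 74 of 144 lymphatic cells against 0.242 in coronary cells, a ratio of 526 [219 to 1649]. Maf, a bZIP factor, stood at 110 CPM against 5.17 (ratio 21.2 [15.96 to 28.1]) and gave 21 UMIs in the other libraries, where 0.267 were expected. Nfatc1 and Foxc2, both needed for lymphatic valves, stood at 101 CPM against 32.8 and 50.4 against 27.3, with fitted log2 fold changes of 1.38 and 0.78 and adjusted p of 0.042 and 0.026 in edgeR. Nr2f2, the nuclear receptor that acts with Prox1 in venous and lymphatic fate, stood at 221 CPM against 75.5 but was not called (adjusted p = 0.33). Sox18, which activates Prox1 in the embryo, differed little, at 97.5 CPM against 84.7 (ratio 1.15 [0.92 to 1.43]). Hhex and Meis2 lay at ratios of 1.50 and 1.67 and were not called. Foxc1 was the gene called lower, at 14.2 CPM against 36.5. Gata2 stood at 48.2 against 74.6 and the flow-induced factor Klf2 at 794 against 1471, neither of them called.

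Ccl21a was by far the most abundant of the listed lymphatic transcripts. It stood at 18606 CPM at P2, with 0 to 475 UMIs per cell and a median of 89, against 16.5 CPM in coronary and 17.5 in endocardial cells. The ratio to coronary cells was 1129 [1014 to 1260]. In the lymphatic cells of the other libraries it gave 9 UMIs at E12, 150 at E15 and 344 in the adult, 503 in all where 3.03 were expected. The fitted log2 fold change was 7.63 with a standard error of 0.83 and an adjusted p of 5.84e-18 (edgeR). It was 9.66 without E12, 9.56 without E15, 5.57 without the adult, and 7.06 with an adjusted p of 0.062 without P2. With coronary cells of under 3 Ccl21a UMIs, a setting chosen after seeing the data, it was 11.4. The gene lies on the minus strand of chr4:42772860-42773993 (mm10). The files list 2 identifiers for Ccl21a, one of them at 0 in every class at P2, and near-identical copies such as Ccl21b, so the share of each copy is uncertain. Because Ccl21a gave the largest level, the 250 bases before its RefSeq start (GRCm38.p6) are shown in the direction of the gene, with the homeobox core TAAT on either strand in capitals.
Ccl21a, chr4:42773992-42774241, minus strand: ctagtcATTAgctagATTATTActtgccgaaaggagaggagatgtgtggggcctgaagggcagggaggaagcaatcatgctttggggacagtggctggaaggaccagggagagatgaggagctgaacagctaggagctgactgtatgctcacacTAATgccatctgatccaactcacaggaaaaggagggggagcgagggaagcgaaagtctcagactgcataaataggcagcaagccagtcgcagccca
The window held 4 matches, 2 of them overlapping by 1 base. TAAT was present in 55.3% of 27025 RefSeq promoters of this length.

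Of the other identity genes, Fgl2, a secreted fibrinogen-like protein, stood at 1994 CPM in 135 of 144 cells against 18.9 CPM in coronary cells (ratio 106 [94.5 to 118]). Thy1, a surface glycoprotein, stood at 512 against 4.64 (ratio 110 [88.3 to 139]). The semaphorin Sema3d stood at 116 against 2.08 and the polarity gene Pard6g at 456 against 24.8. Stab1, a scavenger receptor, was 6.18-fold higher [5.41 to 7.04]. It was seen in all libraries, with 2, 9, 292 and 5 UMIs from E12 to the adult. The neuropeptide Nts stood at 1542 CPM against 520 (ratio 2.97 [2.81 to 3.14]), with 25 UMIs in the other libraries where 2.81 were expected. In all, 10 of 15 tested genes of this list were called higher and Ecm1, an extracellular matrix gene, was called lower (13.1 against 79.2 CPM). The median P2 log2 ratio was 2.35. Stab1 and Nts were not called without the E15 library (adjusted p of 0.28 and 0.42 in edgeR), without doublets and cells past the limits of the study (0.22 and 0.11) or with no filter (0.15 for both). Nts was also not called without the adult library (0.21), with at least 3 genes of the rule seen (0.27) or with the edgeR filter by class (0.074). Nrp2, the co-receptor of Flt4, was 3.63-fold higher at P2 [3.26 to 4.04] and gave 15 UMIs in the other libraries where 3.45 were expected. The fit across libraries did not call it (adjusted p = 0.20). The tetraspanins Cd9 (2070 against 1049 CPM) and Cd63 (1095 against 370) were not called either. Stab2 was at 9.86 CPM, from 7 cells, against 0 in coronary cells and could not be tested.

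**Figure D2:**
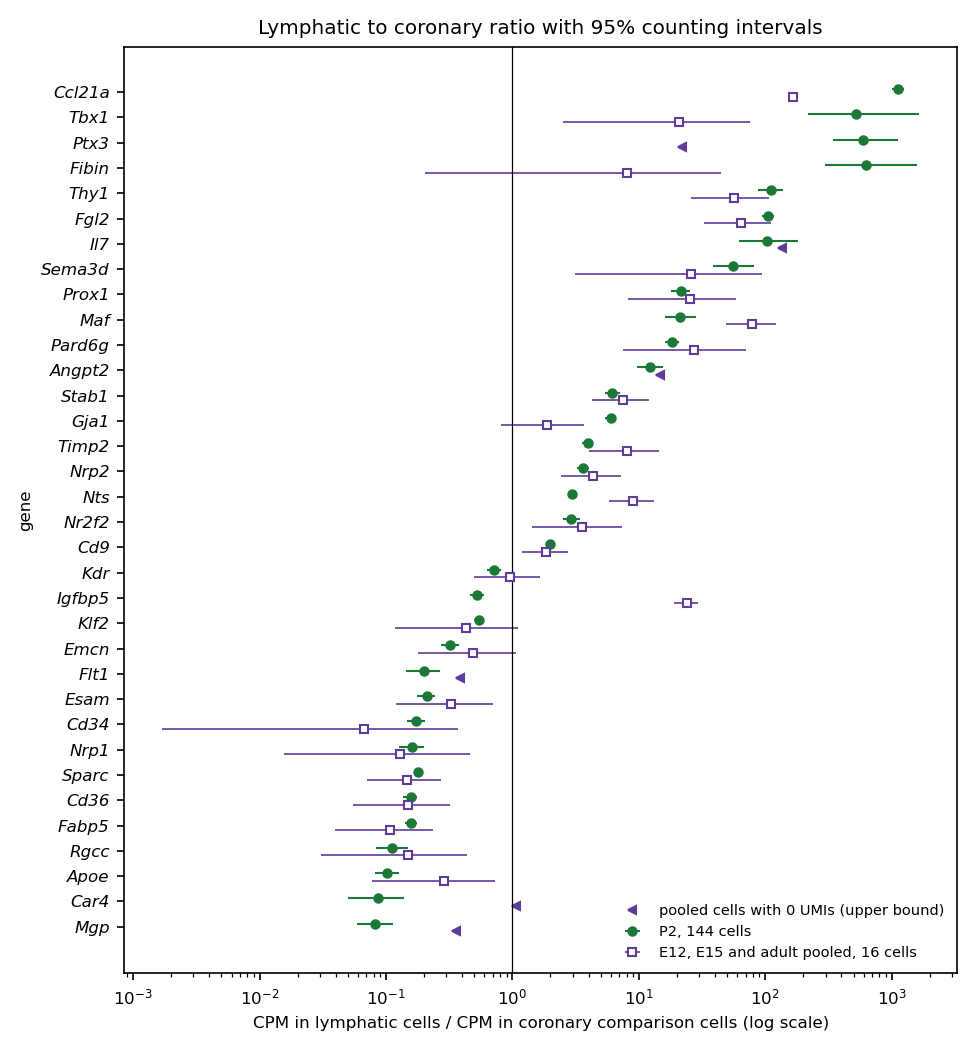
Ratio of CPM in lymphatic to CPM in coronary comparison cells on a log axis, with 95% counting intervals, for 144 P2 cells (filled circles) and the 16 cells of the E12, E15 and adult libraries pooled (open squares, and triangles for an upper bound where these cells had 0 UMIs). Genes above 1 at P2 were mostly above 1 in the pooled cells, and Igfbp5 lay below 1 at P2 and above 1 in the pooled cells.

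Valve and collecting vessel genes were mixed. Of 16 tested, 6 were called higher and 1 lower, against 3.96% and 5.65% of all genes tested. The median P2 log2 ratio was 0.60, against 0.01 over all genes tested. Angpt2, an angiopoietin required for lymphatic maturation, stood at 122 CPM against 9.86 (ratio 12.3 [9.69 to 15.6]) in 46 of 144 cells. The planar polarity gene Celsr1 stood at 25.2 against 1.55, Sema3a at 53.7 against 13.5, the tight junction gene Cldn11 at 127 against 42.7 and the integrin Itga9 at 57.0 against 20.2. Bmp4 was called lower, at 6.57 against 35.5 CPM. Gja1 (connexin 43) stood at 487 against 81.5 CPM and was seen in 119 cells, but was not called across libraries (adjusted p = 0.47 in edgeR). Gja4 at 210 against 130, Fn1 at 394 against 305, Ephb4 at 203 against 142 and Efnb2 at 102 against 97.1 lay within 2-fold of the coronary level.

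Of the VEGF receptor genes, Flt1 and Nrp1 were called lower and Kdr was not. Flt1 (VEGFR1) stood at 48.2 CPM against 242 (ratio 0.199 [0.144 to 0.268]) and Nrp1, the co-receptor for VEGF-A, at 87.6 against 546 (ratio 0.161 [0.127 to 0.20]), with 2 Nrp1 UMIs in the other libraries where 15.6 were expected. Without doublets and cells past the limits of the study the P2 ratio of Nrp1 was 0.0577. Kdr (VEGFR2) was closer to the coronary level, at 252 against 351 CPM (ratio 0.717 [0.626 to 0.818]). Among the ligands, Vegfc stood at 12.1 against 35.5 CPM and was called lower. Pgf and Vegfb were called higher, at 61.3 against 11.3 and 30.7 against 9.43 CPM, so that of 8 tested genes of this pathway 2 were higher and 3 lower. Of the angiopoietin receptors, Tie1 stood at 272 CPM against 269 (ratio 1.01 [0.886 to 1.15]) and Tek at 107 against 166 (ratio 0.646 [0.523 to 0.790]). The adrenomedullin receptor genes Calcrl and Ramp2, which lymphatic growth requires, lay near the coronary level, at 90.9 against 90.1 and 742 against 834 CPM. Ramp3 was called lower (12.1 against 48.1).

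Among genes of leukocyte traffic, Il7, a lymphocyte survival cytokine, stood at 89.8 CPM in 55 of 144 cells against 0.870 in coronary cells (ratio 103 [61.4 to 183]). Spns2, the exporter of sphingosine 1-phosphate, stood at 62.4 against 18.6. Both were called higher, as was Ccl21a, while the adhesion genes Vcam1 (23.0 against 63.7) and Jam2 (21.9 against 153) were called lower among 11 tested. The junction gene Esam was also called lower, at 169 CPM against 806, as was the arterial connexin Gja5, and 2 of 9 tested junction genes were called higher, Cldn11 among them. F11r, another junction adhesion gene, stood at 497 against 332 and was not called.

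Capillary genes were low against coronary cells. Of 19 tested, 13 were called lower and none higher, and the median P2 log2 ratio was -2.58 against 0.01 over all genes tested. The coronary cells were chosen by Fabp4, Cldn5 and Aplnr, so genes expressed with these are raised there in part by the selection. Against endocardial cells, 2 of 17 tested genes of this list were called higher and 2 lower. The median fitted log2 fold change there was -0.36, against -0.31 over all genes tested. Car4, a capillary carbonic anhydrase, stood at 18.6 CPM against 217 (ratio 0.0859 [0.050 to 0.138]), Rgcc at 53.7 against 478, Aqp7 at 9.86 against 173 and Timp4 at 5.48 against 90.1. The fatty acid transporter Cd36 stood at 274 against 1751 and the fatty acid binding protein Fabp5 at 363 against 2304. Apoe, at 96.4 against 944, was the other called gene of 12 tested for fatty acid handling, and the oxidation genes Acadm, Acadl and Etfa lay at ratios of 1.31, 1.03 and 1.43. Gpihbp1, which holds lipoprotein lipase on capillaries, stood at 490 against 1244 and Plvap, which forms fenestral diaphragms, at 370 against 193. Neither was called.

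Of 13 arterial genes tested, 3 were called lower: Gja5, Sox17 (41.6 against 197 CPM) and Mecom (17.5 against 82.1). Cxcl12 stood at 112 against 275 CPM, was seen in 6 of the 144 cells and drew 73 of its 102 UMIs from 1 of them. Of 6 venous genes, Emcn (183 against 568) and Ptgs1 (16.4 against 67.2) were called lower. Of 9 endocardial genes, Cytl1, Prr15, Gata4 and Gsta4 were called lower, and Nfatc1 and the proteoglycan link protein Hapln1 higher. The rule barred endocardial UMIs from lymphatic cells, while 778 P2 coronary cells also met the endocardial rule, so the lower calls of this list follow in part from the selection and are a description. Without the bars on lymphatic cells the fitted log2 fold change moved from -4.90 to -1.50 for Prr15 and from -4.69 to -1.28 for Gata4, and Cytl1 was not called (adjusted p = 0.199 in edgeR). Of 19 matrix genes, Sparc (747 against 4135 CPM), Sparcl1 (222 against 829) and Hspg2 (134 against 422) were called lower, and the protease inhibitor Timp2 (493 against 125) and Ctgf (13.1 against 4.11) higher. Without doublets and cells past the limits of the study the P2 ratio of Sparc was 0.0857 in place of 0.181, and that of Cd34, a sialomucin of blood vessels, 0.0683 in place of 0.172. The basement membrane genes Col4a1, Col4a2, Lama4, Lamb1 and Nid1 lay between ratios of 0.622 and 1.32, while Nid2 was lower, at 59.1 against 136 CPM. Fibroblast, epicardial, mural, cardiomyocyte and erythroid markers had 3 of 6, 1 of 1, 1 of 3, 1 of 5 and 3 of 3 tested genes called lower. The filter on low counts took the mean of both classes at the depth of the lymphatic sum. A marker with few lymphatic UMIs was thus tested only where coronary cells held it, so these lower calls are a description. At P2, 1 of the 3 erythroid genes was at least 2-fold lower. Mrc1 was the 1 macrophage marker tested and was called higher, and no platelet marker passed the filter.

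Genes of cell division did not set P2 lymphatic cells apart. Over 15 genes they summed to 2159 CPM against 2418 in coronary cells. Mcm5 was the 1 gene called, lower at 29.6 against 56.0, a count near the 5.65% of all genes tested that were called lower. Top2a stood at 136 against 124 CPM in 29 of 144 cells and Mki67 at 43.8 against 37.8 in 22 cells. Of the immediate-early genes, which dissociation can raise, Nr4a1 (14.2 against 93.6) and Fosl2 (13.1 against 33.3) were called lower of 14 tested. At P2, 4 of the 14 were at least 2-fold lower, among them Ier2 (316.5 against 727 CPM) and Ier3 (65.7 against 153), and none was 2-fold higher, while Fos stood at 1461 against 1542 and Junb at 1117 against 1119 CPM. The median P2 log2 ratio of the list was -0.36, against 0.01 over all genes tested. Its median fitted log2 fold change was -1.62, against -0.29 over all genes tested. Of the flow-response genes Klf4 stood at 428 against 286 and Thbd at 116 against 126 CPM, and of the antigen presentation genes B2m stood at 1020 against 1289, with Tap1 the 1 of 7 called (3.29 against 22.3). The class II genes H2-Aa, H2-Ab1 and H2-Eb1 were at 0 in the P2 lymphatic cells. The median of UMIs from mitochondrial genes was 3.89% in lymphatic and 3.33% in coronary cells at P2. It was 6.27% against 2.78% at E12 (2 lymphatic cells) and 2.34% against 2.28% at E15 (6 cells). In the adult (8 cells) it was 6.02% against 4.24%.

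Genes that were called and lay on the same side of the coronary level in all 4 libraries numbered 4 higher and 303 lower. A gene with 0 UMIs in the few lymphatic cells outside P2 counts as below the coronary level, and 328 of the 446 genes called lower had 0 UMIs there, so these 2 numbers are not comparable. The 4 were Ccl21a, Stab1, Nts and Fam174b, the last at 156 against 29.5 CPM at P2. Fam174b was not called without the E15 library (adjusted p = 0.15 in edgeR), with a sum of at least 2 (0.14), with the limits of the study (0.051) or with no filter (0.24). The 12 genes with the lowest fitted log2 fold change, from -4.15 to -10.0, were Vcan, Prr15, Col15a1, Tbx3, Gata4, Cytl1, Ass1, Nostrin, Mgp, Lum, AU021092 and Eps8. Vcan, a large proteoglycan of endocardial cushions, had 0 UMIs in the lymphatic cells of every library against 35.6 CPM in P2 coronary cells (ratio at P2 up to 0.114). Gata4, a cardiac transcription factor, stood at 1.095 CPM against 26.7, the matrix gene Mgp at 42.7 against 518, and Nostrin, which traffics endothelial nitric oxide synthase, at 3.29 against 59.6. In the 16 cells outside P2 fewer than 3 UMIs were expected of each of them but Mgp, so the shared side rests on P2. With DESeq2, 10 of the 12 were not called, Col15a1 and Mgp being the others. With neither the endocardial nor the macrophage bar on lymphatic cells, the fitted log2 fold changes of the 12 lay between -0.927 (Lum) and -3.98 (Nostrin). Vcan moved from -10.0 to -2.95, Mgp from -4.21 to -1.85 and Eps8 from -4.15 to -1.45, and Cytl1 and Lum were not called. The size of these differences thus depends on the rule that chose the cells.

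Other transcripts with high ratios at P2 lay outside the lists and were chosen after their values were seen. Ptx3, a secreted pentraxin of innate immunity, stood at 371 CPM in 76 of 144 cells against 0.629 in coronary cells. Fibin stood at 213 against 0.338 CPM and the sodium channel gene Scn3a at 148 against 0.532, each in 66 cells. Lcn2, an iron-sequestering lipocalin, stood at 97.5 against 0.483 in 51 cells, and Lrg1, a secreted leucine-rich glycoprotein, at 147 against 5.22 in 53 cells.

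A stretch of the Hoxd cluster was seen in the lymphatic cells, an observation also made after the values were seen. Hox genes encode homeobox factors that mark position along the body axis and are switched on in the order of the cluster. At P2, Hoxd9 gave 85 UMIs in 59 of 144 lymphatic cells (93.1 CPM [74.4 to 115]) against 9 UMIs in 4236 coronary cells (0.435 CPM). Hoxd8 gave 59 UMIs in 48 cells (64.6 CPM against 2.42), Hoxd4 gave 35 in 32 cells (38.3 against 2.71) and Hoxd10 gave 21 in 16 cells (23.0 against 0). Hoxd3 gave 2 UMIs. Hoxd1 at one end and Hoxd11, Hoxd12 and Hoxd13 at the other gave 0, where 3 counts would be 3.29 CPM each. In endocardial cells the 4 genes lay between 0 and 0.851 CPM, and in the 26 vein comparison cells they gave 0 UMIs. The 16 lymphatic cells of the other libraries gave 2 UMIs each of Hoxd4, Hoxd8 and Hoxd9. The cluster spans chr2:74668310-74765142 on the plus strand (GENCODE, GRCm38), and the annotated Hoxd3 and Hoxd4 overlap, so their UMIs cannot be fully told apart. The 250 bases before the RefSeq starts of the 3 neighbours Hoxd10, Hoxd9 and Hoxd8 (GRCm38.p6) are shown with TAAT on either strand in capitals, since these genes were seen together.
Hoxd10, chr2:74691641-74691890, plus strand: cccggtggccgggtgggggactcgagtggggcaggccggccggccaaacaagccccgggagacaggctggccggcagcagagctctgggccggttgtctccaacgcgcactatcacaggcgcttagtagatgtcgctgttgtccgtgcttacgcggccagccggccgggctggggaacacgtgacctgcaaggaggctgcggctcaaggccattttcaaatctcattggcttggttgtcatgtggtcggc
Hoxd9, chr2:74697513-74697762, plus strand: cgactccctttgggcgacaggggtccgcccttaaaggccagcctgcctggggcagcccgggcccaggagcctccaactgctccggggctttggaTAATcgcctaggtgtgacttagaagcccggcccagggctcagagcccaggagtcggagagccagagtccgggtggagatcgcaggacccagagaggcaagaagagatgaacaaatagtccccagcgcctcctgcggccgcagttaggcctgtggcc
Hoxd8, chr2:74704365-74704614, plus strand: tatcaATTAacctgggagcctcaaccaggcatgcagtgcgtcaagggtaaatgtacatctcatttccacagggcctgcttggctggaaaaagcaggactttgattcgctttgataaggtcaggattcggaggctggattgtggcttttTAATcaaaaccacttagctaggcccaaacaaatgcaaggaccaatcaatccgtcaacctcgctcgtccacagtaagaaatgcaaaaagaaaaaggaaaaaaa
TAAT was found 0, 1 and 2 times in these windows, and the SOX core AACAAT, present on either strand in 9.65% of all promoters, in none of them nor in that of Ccl21a.

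**Figure D3:**
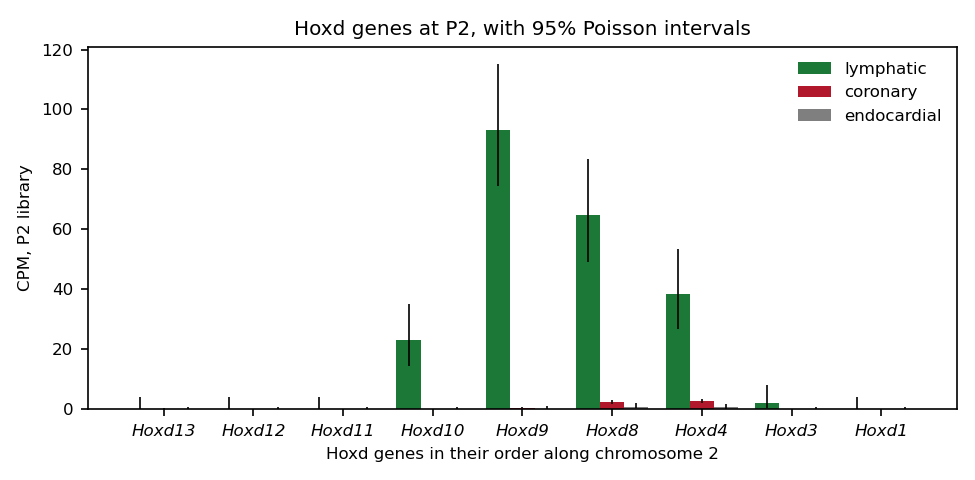
Level of 9 Hoxd genes at P2, in CPM with 95% Poisson intervals, in 144 lymphatic, 4236 coronary and 1156 endocardial cells, in their order along chromosome 2. Hoxd10, Hoxd9, Hoxd8 and Hoxd4 stood at 23.0, 93.1, 64.6 and 38.3 CPM in lymphatic cells and at most 2.71 CPM in the other classes.

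Veins are the blood vessels from which lymphatic endothelium buds. Vein comparison cells, with at least 3 UMIs of Vwf and Prss23 and both seen, numbered 26 at P2 and 28 in the adult, with 0 at E12 and E15, so the fit held 2 libraries. All 26 P2 vein cells and 27 of the adult ones were also coronary comparison cells, so these classes are not separate. Of 7740 genes, 19 (0.245%) were called higher in lymphatic cells and 37 (0.478%) lower by edgeR, and DESeq2, which gave 4960 of the genes no adjusted p, called 9 and 46. Called higher were Ccl21a (18606 against 17.3 CPM at P2), Thy1, Pard6g, Maf and the transporter gene Slc45a3, which had 0 UMIs in the 26 P2 vein cells and 511.5, 456, 110 and 249 CPM in lymphatic cells. The kinase gene Nuak1 (0 against 225 CPM), Rasl11a (0 against 104), P-selectin (Selp, 1.095 against 225, from 2 vein cells), Ass1 (1.095 against 130) and AU021092 (2.19 against 130) were called lower. By DESeq2 the 4 genes at 0 in vein cells were not called, and Rasl11a and Ass1 had no adjusted p. Vwf, which chose the vein cells, was at 13.1 CPM in lymphatic cells. The serine protease Prss23, also used to choose them, stood at 1571 CPM in 135 of 144 lymphatic cells against 423 CPM in vein and 15.5 in coronary cells. Nr2f2 stood at 221 CPM against 354 in vein cells.

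Against endocardial comparison cells, which held at least 2 UMIs of Npr3 and Tmem108, 357 of 7955 genes (4.49%) were called higher in lymphatic cells and 527 (6.62%) lower by edgeR, and 106 and 96 by DESeq2. Without P2, 359 genes could be tested and 3 were called, Ccl21a among them (adjusted p = 0.0047). Called higher on the same side in all 4 libraries were Ccl21a, Nrp2, Gja1, Gap43 and Slc20a1. Without E15, Gja1 and Gap43 were not called (adjusted p of 0.077 and 0.36 in edgeR), Gap43 was not called with no filter (0.13), nor Slc20a1 by DESeq2 (0.32). Nrp2 stood at 439 CPM against 47.0 at P2 (ratio 9.35 [8.00 to 10.9], adjusted p = 6.83e-06) and Gja1 at 487 against 45.3 (ratio 10.8 [9.22 to 12.6]). The growth cone gene Gap43 stood at 278 against 55.3 and the phosphate transporter Slc20a1 at 51.5 against 22.3. The lowest 5, in a comparison whose classes were themselves split by endocardial genes, were Ahsg, Apoc1, Vcan, Smim1 and Plxnc1. These were not called by DESeq2. Fabp5 stood at 363 against 4704 CPM and Apoe at 96.4 against 4003. The capillary genes Car4 (18.6 against 22.3), Rgcc (53.7 against 54.8) and Cd36 (274 against 314) lay near the endocardial level. The 778 P2 cells that met both comparison rules are shared by both comparisons, and the lymphatic cells are the same, so the fits are not independent.

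Lymphatic cells at P2 differed widely in Ccl21a. Ordered by Ccl21a CPM, a split chosen after the values were seen, the lowest 36 cells ranged from 0 to 4884 and the highest 36 from 31906 to 101651, with median depths of 5854 and 5018 UMIs. Prox1 was seen in 28 of the lowest and 31 of the highest 36 cells and Flt4 in 26 of each. Lyve1 was seen in 23 against 33 cells and Reln in 20 against 35, while Mmrn1 was seen in 19 against 13. In CPM, the lowest 36 cells held 0.370 of the Lyve1 of the highest 36 [0.304 to 0.450], 0.325 of the Reln [0.215 to 0.483], 0.351 of the Maf, 0.429 of the Nrp2 and 0.131 of the Ptx3 [0.0732 to 0.222]. Tbx1 (0.902 [0.535 to 1.54]), Mmrn1 (1.02) and Cldn11 (1.21) had intervals that included 1. Lyve1, Reln and Mmrn1 are genes of the rule, so their ratios are conditioned by the selection. Maf, Nrp2 and Ptx3, which the rule did not use, were lower in the cells low in Ccl21a, all within 1 library.

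Nts ran the other way, at 1980 CPM in the 36 cells lowest in Ccl21a against 764 in the highest 36 (ratio 2.59 [2.14 to 3.15]), and it was seen in 32 and 28 of 36 cells. Of single genes picked after their values were seen, Fabp4, a lipid binding protein that also chose the coronary cells, stood at 3684 against 798 CPM, Sparc at 1384 against 214, Esam at 339 against 44.97, Cd34 at 343 against 44.97 and Nrp1 at 213 against 5.62. For Cd34 and Nrp1 the level in the lowest 36 cells was carried by a minority of them. The 87 Cd34 UMIs lay in 10 of 36 cells and the 54 Nrp1 UMIs in 9. Doublet scores over 0.15 were given to 5 of the lowest 36 cells, 13 of the middle 72 and 0 of the highest 36. The part of doublets and of depth in this spread was not tested.

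**Figure D4:**
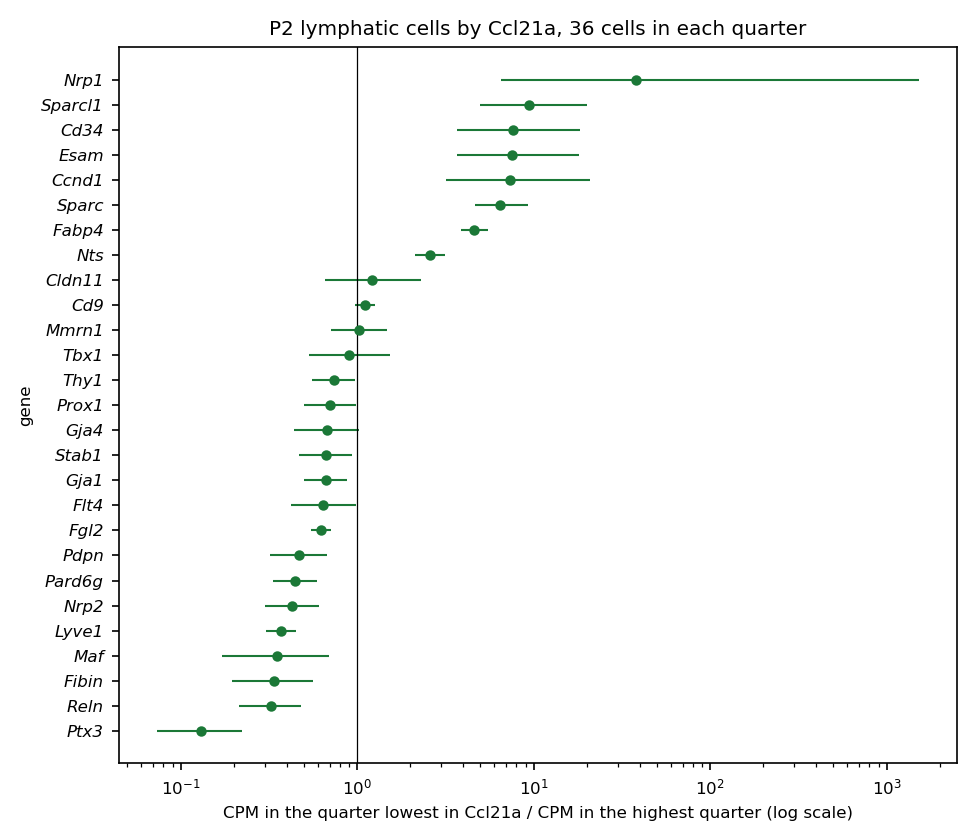
Ratio of CPM in the 36 P2 lymphatic cells lowest in Ccl21a to the 36 highest, on a log axis with 95% counting intervals. Ptx3, Reln, Maf and Lyve1 lay below 1, Prox1 lay at 0.702, the intervals of Tbx1 and Mmrn1 included 1, and Nts, Fabp4, Sparc, Esam, Cd34 and Nrp1 above 1.

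Between E15 and P2, with 6 and 144 lymphatic cells, the levels of many genes differed, but the E15 sum is shallow. Of 5609 genes with at least 20 UMIs over both, 3017 (53.8%) were at least 2-fold higher at P2 and 856 (15.3%) at least 2-fold lower. Of these 5609 genes, 2722 had 0 UMIs at E15. The counting interval lay above 1 for 108 and below 1 for 195. Of the named genes with at least 1 UMI at E15, Cd9 had the highest ratio. It stood at 70.1 CPM (1 UMI) at E15 and 2070 at P2. In coronary cells it went from 351 to 1049. Tuba1a, a tubulin, went from 70.1 to 1096 CPM, against 639 to 815 in coronary cells, and Cav1, the caveolar coat gene, from 140 to 1541 against 1295 to 2058. Fos (70.1 to 1461) and Junb (70.1 to 1117) also went up in coronary cells, 7.03- and 8.32-fold. Arl4a (70.1 to 772) and Sparc (70.1 to 747) went 2.91- and 1.80-fold up there. These E15 levels rest on 1 UMI each, and on 2 for Cav1. The 47 E15 barcodes with at least 10 Ccl21a UMIs were also examined, a choice made after the values were seen. In them all of these genes but Junb had a higher E15 level and a smaller step to P2. Sparc went from 503 to 642 CPM with overlapping intervals and Tuba1a from 448.5 to 1046. Cav1 went from 340 to 1514, Arl4a from 204 to 778, Fos from 163 to 1387 and Cd9 from 109 to 2103. Junb went from 68.0 to 1021 CPM. Lower at P2 were Plagl1, an imprinted zinc finger gene (280 to 27.4 CPM), Cdk2ap1 (280 to 23.0), Gm26917 (561 to 42.7), Gm16104, Cks1brt, Ppm1m, 0610011F06Rik and Parp1. The 10 Parp1 UMIs at E15 came from 1 cell. In coronary cells Gm26917, Gm16104, Cdk2ap1, Cks1brt and Plagl1 were lower at P2 as well, and Ppm1m, 0610011F06Rik and Parp1 lay between ratios of 0.740 and 1.26.

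In the 8 adult cells some genes lay near their P2 level and others did not. Fgl2 gave 12 UMIs (1192 CPM [616 to 2082]) against 1994 CPM at P2. It had 0 UMIs at E12 and E15, where 3 counts would be 1179 and 210 CPM. Thy1, Nrp2 and Cd9 stood at 596, 596 and 2384 CPM. Junb and Ptx3 gave 0 UMIs, where 3 counts would be 298 CPM, against 1117 and 371 CPM at P2. The P2 level of Ptx3 lay near that limit. Junb stood at 1452 CPM in adult coronary cells. In the 13 adult barcodes with at least 10 Ccl21a UMIs it stood at 718 CPM (15 UMIs). Timp3 stood at 2384 CPM in the 8 adult cells against 498 at P2. Maf stood at 1291 CPM [688 to 2208] against 110 at P2. Igfbp5, an insulin-like growth factor binding protein, gave 77 UMIs in 6 of the 8 cells (7650 CPM [6037 to 9561]) against 255 CPM at P2, and in adult coronary cells it stood at 70.7. Rbp7 gave 25 UMIs in 5 cells (2484 CPM [1607 to 3666]) against 124 at P2. Genes of cell division summed to 0 UMIs in the adult cells, where 3 counts would be 298 CPM, against 447 in adult coronary cells and 2103 at E15 [1419 to 3002].

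Barcodes with at least 10 Ccl21a UMIs, a choice that uses none of the genes of the rule and was made after the values were seen, gave more cells in the embryo. The E12, E15, P2 and adult libraries held 14, 47, 148 and 13 of them, of which the rule held 0, 5, 120 and 6. Prox1 stood at 147, 163, 301 and 239 CPM in these barcodes from E12 to the adult, and Nrp2 at 500, 544, 439 and 431, so both lymphatic genes were present at every stage. Fgl2 was at 0 [0 to 108], 68.0, 2028 and 1627 CPM and Cd9 at 0 [0 to 108], 109, 2103 and 2297, low in both embryonic libraries and high in both postnatal ones. Lyve1 had the same order, at 118, 163, 1114 and 1292 CPM. The embryonic and postnatal libraries also differed in dissociation and in the handling of thawed cells, whose part in these levels was not tested. Maf stood at 294, 462, 108 and 1005 CPM, Igfbp5 at 58.8, 54.4, 239 and 5694, and Hmgb2, a chromatin gene of dividing cells, at 970, 856, 740 and 47.8. Tbx1 (206, 109, 114 and 0 CPM) and Ptx3 (88.2, 190, 378 and 0) gave 0 UMIs in the 13 adult barcodes, with an upper bound of 176.5 CPM. Part of these barcodes are cells of the rule, so they are no independent sample.

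**Figure D5:**
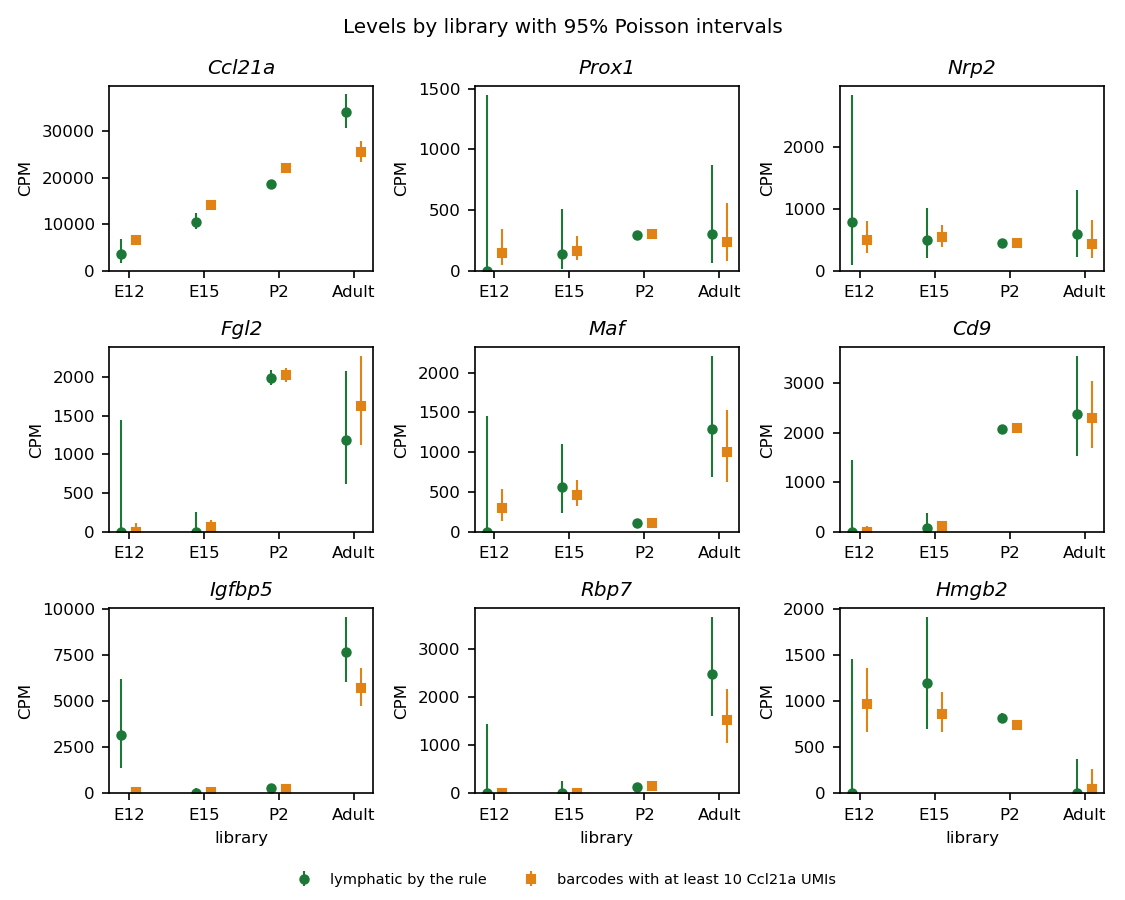
Levels of 9 genes in CPM with 95% Poisson intervals, by library, in lymphatic cells by the rule (circles; 2, 6, 144 and 8 cells) and in barcodes with at least 10 Ccl21a UMIs (squares; 14, 47, 148 and 13). Fgl2 and Cd9 were low at E12 and E15 and high at P2 and in the adult, Igfbp5 and Rbp7 were highest in the adult, and Nrp2 lay between 431 and 544 CPM in the squares of all 4 libraries.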

How the data were processed

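Single-cell libraries of sorted mouse heart endothelium were read from the matrices of UMI counts that the authors deposited, made per the labels with Cell Ranger 2.2 on mm10 and not normalized. All 5884 P2, 6062 E15 and 4242 adult barcodes were used, and E12 barcodes with at least 452 UMIs, which gave 5732. The P2 library totalled 29645059 UMIs, against 8122358 for E12, 7079759 for E15 and 7650091 for the adult. UMIs were summed per library and class. Genes were tested where the mean of the pooled CPM of both classes corresponded to at least 10 UMIs at the depth of the lymphatic sum, with edgeR 4.0.16 (quasi-likelihood, TMM scaling, the library as a block, Benjamini-Hochberg adjustment over all genes tested), and 18 genes that chose the classes were given no call. The threshold was an adjusted p of 0.05. DESeq2 1.42.0 and the settings named in the closing section were alternatives.

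Genes were named as members of 25 lists, or per comparison as those called on the same side in every library, by largest fold change. For E15 and P2 they were those whose counting interval excluded 1, by largest ratio. Doublets were scored with Scrublet in scanpy 1.11.5 and were kept, apart from the alternative that left out scores over 0.15. Ratios of CPM have exact conditional binomial intervals and CPM exact Poisson intervals, at 95%. On simulated counts for the coronary comparison, 49 of 49 genes raised 16-fold and 27 of 50 raised 4-fold were called. Of genes lowered 16-fold and 4-fold, 39 of 39 and 30 of 40 were called. Calls also fell on 54 of 7655 genes left unchanged, a larger part of the simulated calls than the threshold on adjusted p allows. The median fitted log2 fold change of these unchanged genes was -0.238. The edgeR calls may thus hold more false ones than the threshold implies. Gene positions came from GENCODE (GRCm38). The members, comparison classes and gene lists were chosen with earlier results of these data known. Some members of the lists are counted with their list and are not reported here by name.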

Additional observations from a re-analysis of the deposited data

Results flagged for a closer look

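Genes flagged here lay on one side of the coronary level at P2 and on the other in the lymphatic cells of the pooled E12, E15 and adult libraries. Fbln5, an elastic fibre gene, was at 2.29 times the coronary level at P2 and at 0 in the other libraries. Gsn was at 2.41 times the coronary level at P2 and at 0.173 in the others. Ptn was at 0.212 at P2 and 6.92 in the others, and Rbp7 at 0.191 and 2.08. These pooled values describe no single library. The Ptn and Rbp7 UMIs of the pooled cells were all from the adult, where Ptn stood at 1788 CPM (18 UMIs) against 5.82 in coronary cells and Rbp7 at 2484 (25 UMIs) against 1026. At E15 both were at 0 UMIs, against 157 and 118 CPM in coronary cells, and at E12 both were at 0, against 117 and 0. The difference between P2 and the other libraries was not tested.

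Barcodes with at least 10 Ccl21a UMIs that the rule did not keep numbered 28 at P2, 14 at E12, 42 at E15 and 7 for the adult. Of these, 3 at E12 and 27 at E15 held no UMI of the 5 genes of the rule. In the coronary comparison cells, 2 at E12, 13 at E15 and 0 at P2 and in the adult reached 10 Ccl21a UMIs.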

How the results depend on the processing

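The lymphatic share moved with the rule. It was 0.209% at E12 with a sum of at least 2, and 2.04% at P2 with at least 3 genes seen and 3.08% with no exclusion. Thinned to 500 UMIs it was 0% at E12 and E15, 0.170% at P2 and 0.0236% in the adult. Against coronary cells, genes called higher numbered 105 by DESeq2, 482 with library size alone and 70 with the edgeR filter by class, and genes called lower 30 by DESeq2, 108 with that filter, 289 with small libraries pooled, 242 with a sum of at least 2 and 295 with no exclusion. Leaving out 1 library gave 1 to 422 higher and 0 to 395 lower. The 0 lower without P2 came with 24 at an unadjusted p under 0.05, and lower calls were 243 without E12 and 191 without E15. Against vein cells, higher calls were 9 by DESeq2, 64 with library size alone, 9 with no filter and 70 pooled, and lower calls 150, 15 and 148 with the last 3 settings. Leaving out a library was not possible there, with 2 libraries. Against endocardial cells, higher calls were 106 by DESeq2, 545 with library size alone and 96 with the filter by class, and lower calls 96 by DESeq2 and 201 with that filter. Leaving out 1 library gave 1 to 461 higher and 2 to 423 lower, with 324 lower without E12 and 300 without E15. Between E15 and P2, at least 50 UMIs gave 1195 higher and 324 lower, a fold of 3 gave 333 lower, and barcodes with at least 10 Ccl21a UMIs, chosen after seeing the data, 357 lower. The cause of these moves was not tested, apart from the fewer genes tested without P2 (396). No result reversed. Of the fitted fold changes of named genes under the alternatives, 304 kept their call and 39 lost it. With DESeq2, 14 kept it and 20 lost it, while all 36 kept it with small libraries pooled and with library size alone. Genes that failed the filter or had no adjusted p under a setting were not counted, so without P2 only 2 kept and 1 lost their call. Of the P2 ratios, 521 stayed within their counting interval and 129 left it, among them 28 (against 51 that did not) with the limits of the study and doublet score, 24 (against 62) with no exclusion and, in settings chosen after seeing the data, 27 (against 58) with coronary cells without endocardial or macrophage genes and 20 (against 41) without the 36 cells lowest in Ccl21a. The comparisons between classes were paired by library throughout. For the comparison between stages, the replicate number pairs nothing. No paired analysis was possible because each stage was 1 library. Depth limits every level outside P2, where the lymphatic cells held 26876 UMIs in all.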
